A study of Caenorhabditis elegans with 4 samples.

Results

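The zip- genes of C. elegans encode transcription factors of the basic leucine zipper (bZIP) family. The 10 genes described here are zip-1, zip-3, zip-4, zip-5, zip-6, zip-7, zip-8, zip-10, zip-11 and zip-12, a list chosen by name. The list leaves out zip-2 and zip-9, which carry the same name and are read below with the other bZIP genes. All 10 are among the 20448 genes that could be named on the array. Expression was measured on 4 single-colour Agilent arrays, 2 for low MV worms and 2 for high MV worms. Both groups were whole worms of the wild-type strain N2 that shared growth at 20 °C and an adult age of 7 to 8 days. Maximum velocity (MV) is the peak speed a worm reached on a plate with no bacteria, and worms below 0.22 mm/sec formed the low MV group. Neither group carried a mutation or a drug treatment, so the groups differ by this sorting on movement alone as far as the labels say. The labels do not say how many worms each sample pooled or whether the 2 samples of a group came from separate cultures, so the p-values below measure only the spread between these samples, which may be technical.

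A bZIP protein binds DNA through its basic region and pairs with a second bZIP protein through its leucine zipper, so the family acts as homodimers and heterodimers. In worms, bZIP factors are known for stress and immune responses, among them SKN-1 in oxidative stress, XBP-1 in protein folding stress of the endoplasmic reticulum and ATFS-1 in mitochondrial stress. Of the zip- class, ZIP-1 is known to drive part of the response to intracellular pathogens, ZIP-3 to hold back the mitochondrial stress response of ATFS-1, ZIP-10 to promote death of worms in the cold, and ZIP-11 to act in immunity to Pseudomonas aeruginosa.

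The scanner software marked between 84.58% and 87.71% of the spots that are not controls as well above background on each array, and no spot was saturated. Both low MV arrays lay on 1 slide with 1 scan and both high MV arrays on another, so slide, scan and physical ability cannot be told apart. Signals are given as log2 of the background-subtracted intensity after quantile normalization, which gives every array the same distribution. A probe counted as present above a cutoff of 6.65 to 6.67, set per array where 2 fitted Gaussian curves meet, in both arrays of at least 1 group. Each gene was read from its brightest present probe. The comparison was fitted in limma, which pools the spread over genes. A gene was called if it passed a Benjamini-Hochberg adjusted p of 0.05 over the 12869 genes tested and an absolute log2 fold change of 0.58, or 1.5-fold. Each fold change is low MV over high MV. With 2 arrays against 2, 0.333 is the smallest two-sided p of an exact permutation test, and every adjusted p therefore leans on the spread pooled over genes. In whole worms, fewer cells of a type and less RNA per cell cannot be told apart.

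Of the 10 zip- genes, 9 had a present probe, and 2 of these, zip-10 and zip-8, were up-regulated in low MV worms. None was down-regulated, by limma, by the methods' t-test or by a rebuild of the study's integrative test, which called more genes than the paper reports. Over all genes tested, 21.8% were called higher in low MV worms and 17% lower, 38.8% in all, so 2 of 9 and 0 of 9 stand beside a background that is itself large. The median log2 fold change of the 9 genes was -0.09, against 0.01 for all genes. Its sign depended on the scaling, at 0.15 with arrays scaled to their 75th percentile (all genes 0.03) and at -0.20 with spike-in probes (all genes -0.33). A further 3 genes, zip-3, zip-7 and zip-12, passed the adjusted p but changed by less than 1.5-fold. In all 5 of 9 passed the adjusted p, as did 60.1% of all genes tested. The remaining 4, zip-1, zip-4, zip-5 and zip-11, did not pass the adjusted p. Groups did not overlap for 8 of the 9 genes, beside 83.4% of all genes tested. Low MV arrays were above in 4 of them and below in 4, beside 42.3% and 41.2% of all genes.

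**Figure D1:**
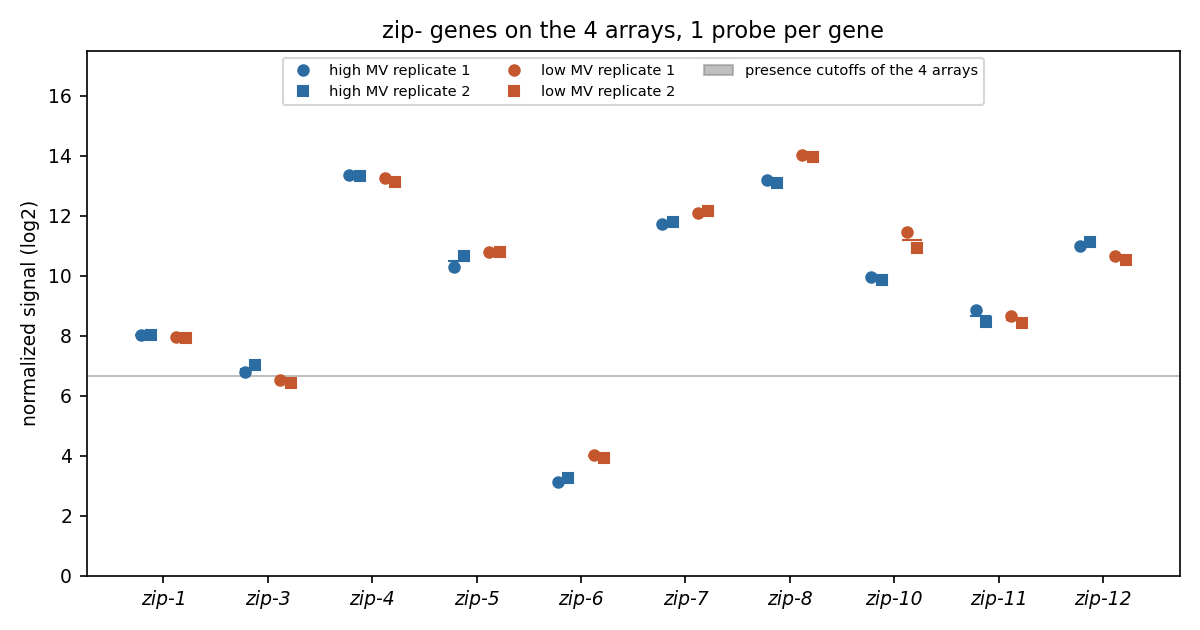
Normalized signal (log2) of each zip- gene on the 4 arrays, from the probe that stands for the gene, with high MV arrays in blue, low MV arrays in orange and short lines at the group means. The low MV arrays lie above the high MV arrays for zip-10 and zip-8, which were called, and also for zip-5, zip-6 and zip-7, which were not. zip-6 lies below the presence cutoffs of 6.65 to 6.67 on all 4 arrays. Levels cannot be compared between genes, since each comes from a different probe.

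The largest change among the 9 tested genes of the list was that of zip-10 (T27F2.4), the factor known for cold-induced death. Its log2 signal was 9.96 and 9.86 on the high MV arrays and 11.47 and 10.94 on the low MV arrays. Both low MV arrays were above both high MV arrays, and they differed more from each other (SD 0.38, n = 2) than the high MV arrays did (SD 0.07, n = 2). The log2 fold change was 1.29 (SE 0.19, limma, adjusted p = 0.00386), a rise of 2.45-fold. A larger absolute change was seen in 10.2% of all genes tested. zip-10 has 1 probe on the array, whose spot was 54.8 to 149 times as bright as its local background. Leaving out 1 array at a time moved its log2 fold change between 1.03 and 1.56.

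The expression of zip-8 (F23F12.9) was also higher in low MV worms. By its brighter probe the log2 signal was 13.18 and 13.09 in high MV worms and 14.01 and 13.97 in low MV worms (SD 0.06 and 0.03, n = 2 each), with no overlap. The log2 fold change was 0.85 (SE 0.09, limma, adjusted p = 0.00179), a rise of 1.81-fold. The second probe of zip-8 carries the name of another transcript form, F23F12.9b. It gave 9.81 and 9.99 in high MV worms and 10.51 and 10.34 in low MV worms, which gave 0.52 on the log2 scale (95% interval 0.22 to 0.83). It passed the adjusted p over all present probes (limma, adjusted p = 0.0153) without reaching 1.5-fold. The rise of zip-8 depended on how the arrays were scaled. For the brighter probe, scaling to the 75th percentile of each array gave 0.57 (limma, adjusted p = 0.00501), just under the fold threshold. Scaling to 8 spike-in probes gave 0.21 for that probe (adjusted p = 0.693). The second probe passed both thresholds under 75th percentile scaling, at 0.60 (limma over all present probes, adjusted p = 0.0086), and was not called under spike-in scaling. Spike-in scaling moved the median of all genes to -0.33. Both scalings shift each array by a constant, so values relative to the median of all genes are the same under both by construction. They were 0.55 for zip-8 and 1.29 for zip-10. zip-10 was called under both scalings, at 1.31 and 0.95.

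The list held 2 genes with values in the other direction that passed the adjusted p alone. The log2 signal of zip-12 (Y75B8A.29) was 10.98 and 11.13 in high MV worms and 10.64 and 10.52 in low MV worms, with no overlap. Its log2 fold change was -0.47 (SE 0.11, 95% interval -0.74 to -0.20, limma, adjusted p = 0.0148). zip-3 (W07G1.3), the repressor of the mitochondrial stress response, was at 6.80 and 7.01 in high MV worms and at 6.52 and 6.41 in low MV worms. Its low MV values lie below the presence cutoff, so the gene entered the test through its high MV arrays, and a difference in this direction was favoured by the filter. Its log2 fold change was -0.44 (SE 0.12, 95% interval -0.74 to -0.15, limma, adjusted p = 0.0226). Under normexp background correction, which adds an offset of 50 and shrinks changes of dim spots, zip-3 was at -0.04. It was at -0.13 under 75th percentile scaling (limma, adjusted p = 0.454) and at -0.16 on the deposited log2 table (adjusted p = 0.210). Spike-in scaling gave -0.48 without passing the adjusted p (limma, adjusted p = 0.33). The second probe of zip-3 was not well above background on any array and gives no fold change.

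For zip-7 (Y51H4A.4) the log2 signal was 11.73 and 11.79 in high MV worms and 12.10 and 12.17 in low MV worms, again without overlap. Its log2 fold change was 0.38 (SE 0.09, 95% interval 0.14 to 0.61, limma, adjusted p = 0.0194). Its 3 probes gave 0.38, 0.39 and 0.48, all in the same direction. Under 75th percentile scaling the brightest probe was at 0.23, and the dimmest was called, at 0.67 (limma over all present probes, adjusted p = 0.00809). Under spike-in scaling zip-7 was at -0.13, and relative to the median of all genes at 0.20.

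Of the genes that did not pass the adjusted p, zip-1 (probe A_12_P102681) had the narrowest spread. Its log2 signal was 8.03 and 8.02 in high MV worms and 7.96 and 7.91 in low MV worms, and the log2 fold change was -0.09 (95% interval -0.32 to 0.13, limma, adjusted p = 0.401). That interval leaves out a change of 1.5-fold in either direction under quantile normalization. The sign of zip-1 turned under scaling to the 75th percentile, at 0.15. zip-1 and zip-12 are close neighbours on the chromosome, with 1 protein-coding gene between them in the RefSeq annotation.

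zip-4 (Y44E3B.1) is covered by 5 probes, all present. The brightest gave 13.36 and 13.33 in high MV worms and 13.27 and 13.13 in low MV worms, which gave -0.14 on the log2 scale (95% interval -0.39 to 0.11, limma, adjusted p = 0.266). The probes of zip-4 disagreed in sign, with 4 between -0.39 and -0.14 and A_12_P112444 at 0.17. The probe at -0.39 carries the name of another transcript form, Y44E3B.1b.2. It was the only zip-4 probe to pass the adjusted p (limma over all present probes, adjusted p = 0.0189), and it passed both thresholds when arrays were scaled to the 75th percentile, at -0.62 (adjusted p = 0.00405), or to spike-in probes, at -0.98 (adjusted p = 0.0268). Before any scaling the brightest zip-4 probe had intensities of 11227 and 12819 on the high MV arrays and 8947 and 7501 on the low MV arrays.

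For zip-5 (C34D1.5) the high MV arrays lay apart, at 10.29 and 10.65, while the low MV arrays were at 10.79 and 10.80. The log2 fold change was 0.32 (95% interval -0.05 to 0.68, limma, adjusted p = 0.108). Leaving out 1 array at a time moved it between 0.14 and 0.50. zip-11 (W08E12.1), the factor with a role in immunity, was the only tested member whose groups overlapped. Its log2 signal was 8.87 and 8.44 in high MV worms and 8.64 and 8.43 in low MV worms. The log2 fold change was -0.12 (95% interval -0.56 to 0.32, limma, adjusted p = 0.573), an interval that reaches nearly to 1.5-fold lower. Without high MV replicate 1 it was 0.09.

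The single probe of zip-6 (R07H5.10) was dim, with a spot only 1.77 to 2.27 times as bright as its local background, and it lay below the presence cutoff on every array. Its log2 signal was 3.12 and 3.26 in high MV worms and 4.03 and 3.93 in low MV worms, and the scanner software marked it well above background on all 4 arrays. Without the filter on dim probes the log2 fold change of zip-6 was 0.79 (SE 0.11, limma, adjusted p = 0.0148), and with the scanner flag as the filter the adjusted p was 0.00909. Either choice would add zip-6 as the third up-regulated gene of the list. Of all genes, 20.5% were called higher without the filter and 22.9% with the scanner flag.

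**Figure D2:**
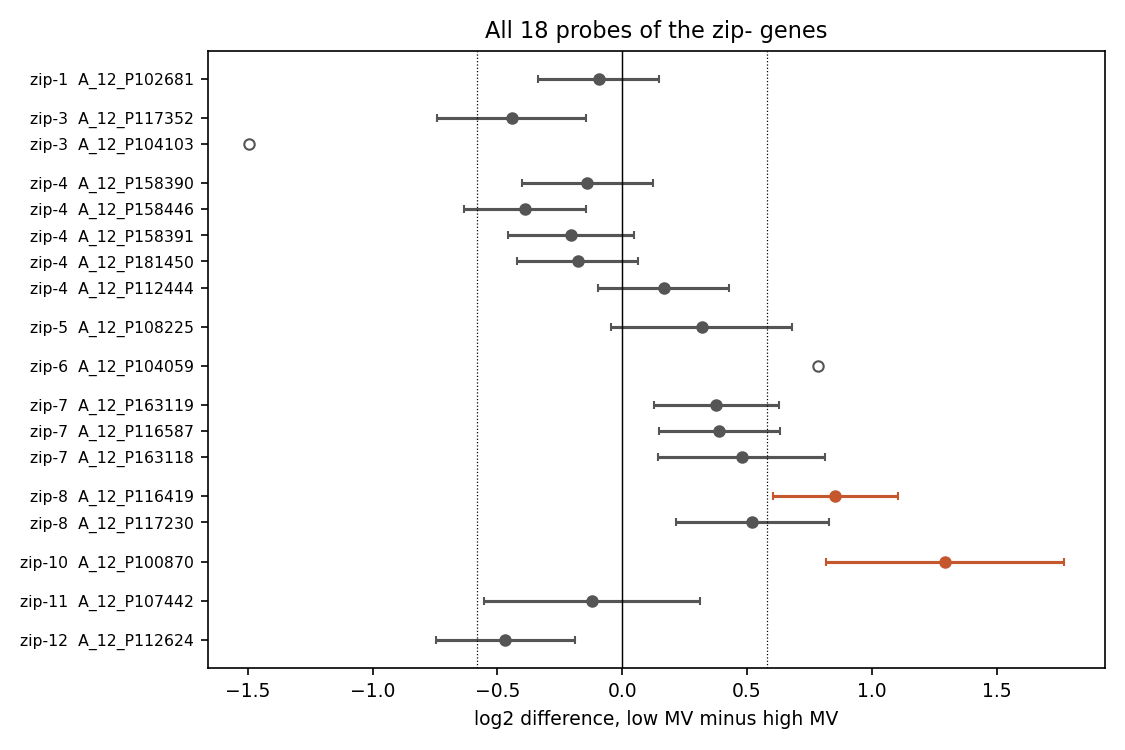
Difference of low MV and high MV arrays (log2) for all 18 probes of the zip- genes, with bars for the 95% interval of the fit over all present probes. Open circles are the 2 probes that were not present, orange marks the 2 probes that were called, and dotted lines stand at a log2 change of 0.58 in either direction. The 3 probes of zip-7 and both probes of zip-8 lie to the right of 0, while those of zip-4 lie on both sides.

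The 10 genes have 18 probes, of which 16 were present. In the fit over all 24751 present probes, 2 of the 16 were called higher, 1 each for zip-8 and zip-10, beside 20.3% of all present probes, and none was called lower, beside 17.9% (38.3% in either direction). Probes of 1 gene share its RNA and are not replicates of each other. Without high MV replicate 2, the second zip-8 probe was at 0.61 and the dimmest zip-7 probe at 0.62.

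**Figure D3:**
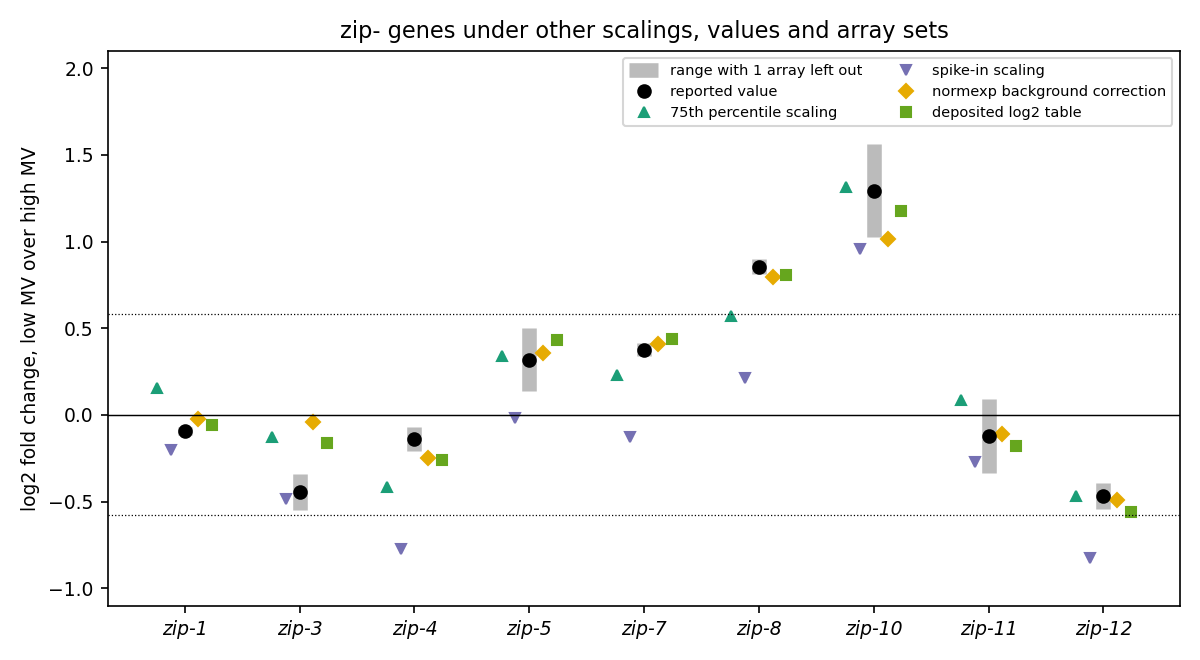
Log2 fold change of the 9 tested zip- genes as reported (black), with 1 array left out (grey range), under 2 other scalings, under normexp and on the deposited log2 table. zip-10 stays above the dotted line at 0.58 in each of these, whereas zip-8 falls to 0.57 and 0.21 under the other scalings.

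The other bZIP genes of the genome were read from the same fit. Of 19 with a present probe, 8 were up-regulated in low MV worms, beside 21.8% of all genes tested. Their median as a list was 0.47 (log2). None was down-regulated, beside 17% of all genes, and 1, atfs-1, was lower by the adjusted p alone. Under spike-in scaling 4 of the 19 were called, all higher, beside 7.93% of all genes. The median of the list was then 0.17, against -0.33 for all genes. The largest were zip-2, ces-2, atf-2 and zip-9, with log2 fold changes of 1.82, 1.77, 1.58 and 1.54 and adjusted p of 0.000749, 0.00345, 0.00277 and 0.000809 (limma). These 4 were also called under spike-in scaling, at 1.22, 1.20, 1.42 and 1.19. zip-2, known for the response to Pseudomonas aeruginosa, had a larger estimate than zip-10, and its interval of 1.52 to 2.12 overlapped that of zip-10, 0.81 to 1.78. The difference between the genes was not tested. ces-2 is known from the control of programmed cell death in neurons. cebp-1 (0.97), a C/EBP factor needed for axon regeneration, entered the test through its low MV arrays alone.

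Known partners were named after their values were seen. cebp-2, the partner of ZIP-2 and ZIP-11, had 12.82 and 12.85 in high MV worms and 12.67 and 12.73 in low MV worms, and the difference was -0.14 (limma, adjusted p = 0.247). atfs-1, the factor that ZIP-3 holds back, had a log2 fold change of -0.40 (limma, adjusted p = 0.0187), less than 1.5-fold.

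**Figure D4:**
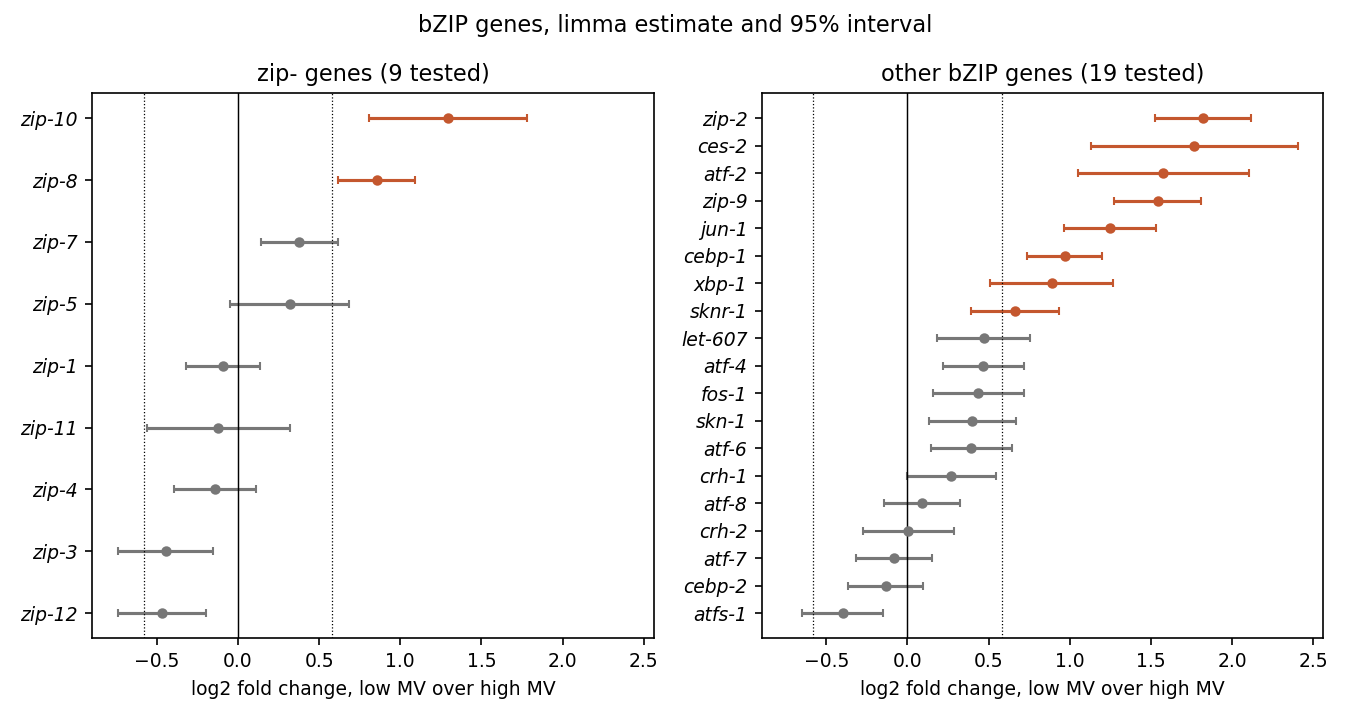
Log2 fold change of low MV over high MV worms with its 95% interval (limma) for the 9 tested zip- genes (left) and 19 other bZIP genes (right), in order of size. Orange marks genes called higher in low MV worms, grey those not called, and dotted lines stand at 0.58 in either direction. zip-10 and zip-8 are called on the left, and 8 genes from sknr-1 at 0.66 to zip-2 at 1.82 on the right.

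Genes around individual members were described from lists written by role. ZIP-10 is known to act below ISY-1, a splicing-related factor that keeps zip-10 low, and to raise the protease genes asp-17 and cpr-3. On these arrays asp-17, an aspartyl protease gene, was down-regulated in low MV worms. Its log2 signal was 10.05 and 10.37 in high MV worms and 8.70 and 8.45 in low MV worms, a difference of -1.64 (SE 0.15, limma, adjusted p = 0.00132). The direction was thus opposite to that of zip-10 on the same arrays, and asp-17 was also lower under spike-in scaling, at -1.85. The cathepsin B-like gene cpr-3 was at -0.13 (adjusted p = 0.519), with overlapping groups. isy-1 was at 13.76 and 13.87 in high MV worms and 13.33 and 13.32 in low MV worms. Its log2 fold change of -0.49 (SE 0.09, limma, adjusted p = 0.00857) was under 1.5-fold, and it passed both thresholds under spike-in scaling at -1.14.

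The intracellular pathogen response, part of which needs ZIP-1, had 9 of 15 listed genes with a present probe. Of these, 4 were called higher and 1 lower in low MV worms, beside 21.8% and 17% of all genes tested. The median of the 9 was 0.46 (log2), or 0.065 under spike-in scaling. The standard readout pals-5 had a probe but was not present. F26F2.3 rose by 1.13, eol-1 by 0.74, skr-3 by 0.72 and cul-6 by 0.58 (limma, adjusted p of 0.00133, 0.0180, 0.00252 and 0.0180), the last lying on the fold threshold. skr-3 and cul-6 encode parts of a ubiquitin ligase. pals-6 was lower, at -0.61 (adjusted p = 0.0109). It entered the test through its high MV arrays alone, which favours that direction, and it was not called under 75th percentile scaling (-0.30, adjusted p = 0.107) or spike-in scaling (-0.655, adjusted p = 0.176). The count called was 3 without low MV replicate 1 and 2 under spike-in scaling, where F26F2.3 was higher and the peroxidase gene skpo-1 lower. F26F2.3 was below the presence cutoff in high MV worms and entered the test through its low MV arrays alone.

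For the mitochondrial unfolded protein response, which ZIP-3 is known to restrain, 10 of 10 listed genes were tested, with a median of -0.08, which was -0.30 under 75th percentile scaling and -0.655 under spike-in scaling. The chaperone gene hsp-60 was lower, at -0.60 (limma, adjusted p = 0.0338), and the import channel gene timm-23 higher, at 0.61 (adjusted p = 0.00431). The other 8 were not called, where 38.8% of all genes were called in either direction. Among the 8 was clpp-1, at -0.06 by the brightest of its 3 probes (limma, adjusted p = 0.643). The paper, by its own test, lists clpp-1 among the genes lower in low MV worms. hsp-6, the usual reporter of this response, was at -0.03 with overlapping groups. Without high MV replicate 1 no gene of this list was called, and without low MV replicate 2 only 1 was. timm-23 was at -0.02 under spike-in scaling.

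The p38 MAPK cascade, the immune pathway with which ZIP-11 has been linked, had 4 of 5 genes up-regulated in low MV worms, beside 21.8% of all genes. The adaptor tir-1 rose by 1.89, the phosphatase vhp-1 by 1.76, the kinase nsy-1 by 0.95 and pmk-1, the p38 kinase itself, by 0.73 (limma, adjusted p of 0.0015, 0.000908, 0.00268 and 0.00655). sek-1 was at 0.38 (adjusted p = 0.0208). Under 75th percentile scaling 3 of 5 were called, beside 25.6% of all genes called higher, and pmk-1 was not, at 0.56 (limma, adjusted p = 0.014). Under spike-in scaling tir-1 and vhp-1 were called, at 1.28 and 1.24. zip-11 itself, as given above, showed no difference larger than its spread.

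**Figure D5:**
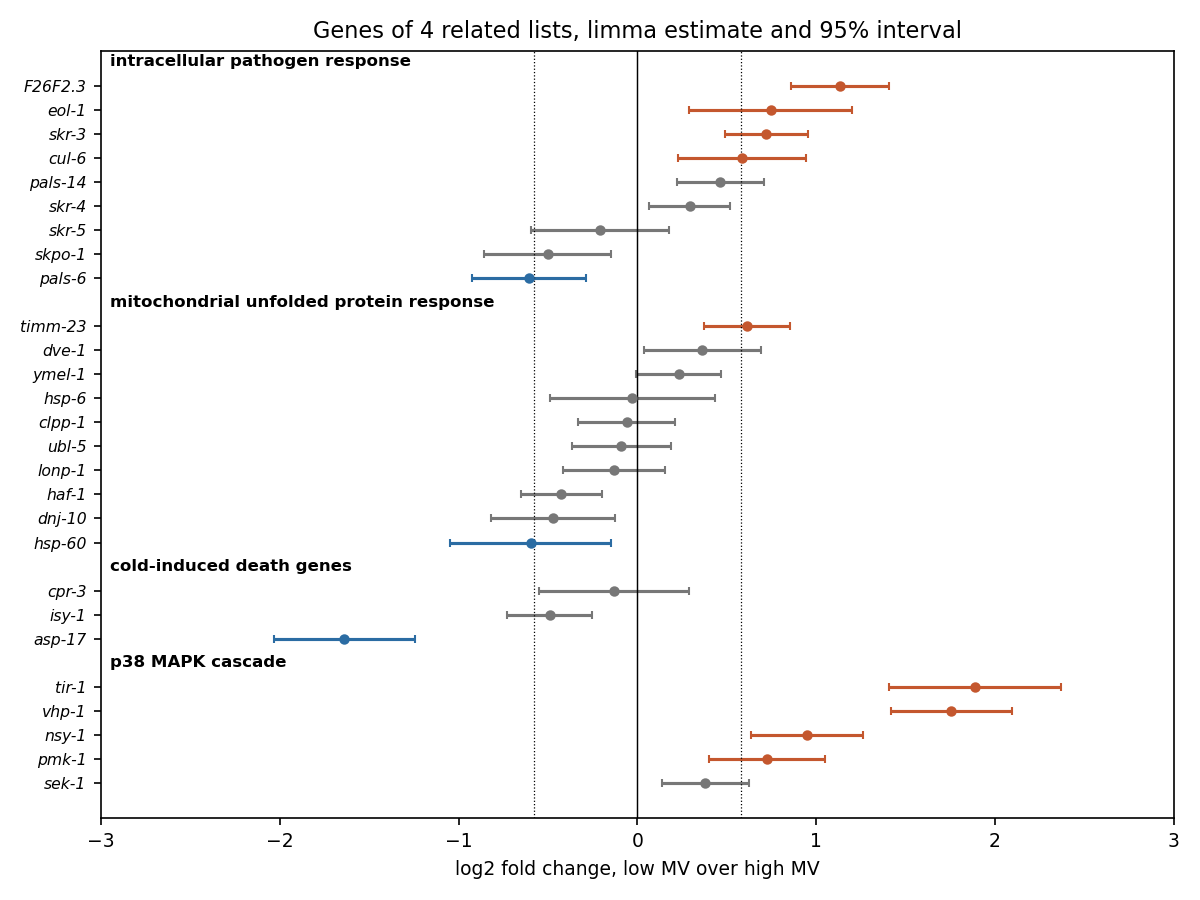
Log2 fold change of low MV over high MV worms with its 95% interval (limma) for the tested genes of 4 lists related to ZIP-1, ZIP-3, ZIP-10 and ZIP-11. Orange and blue mark genes called higher and lower in low MV worms, and dotted lines stand at 0.58 in either direction. asp-17 is the lowest at -1.64 and tir-1 the highest at 1.89.

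Tissue markers moved between the groups as well, where 21.8% of all genes tested were called higher in low MV worms and 17% lower. Epidermal and molting markers were called higher in 7 of 7 tested genes, with a summed log2 signal of 12.38 to 12.39 in high MV and 13.97 to 14.17 in low MV worms, and bli-1 and qua-1 were not present. Of the 7, rol-6 entered the test through its low MV arrays alone, which favours a call in that direction. Neuronal markers were called higher in 4 of 7, and 6 of the 7 had values above 0. Their summed signal was 15.29 to 15.33 in high MV and 15.55 to 15.66 in low MV worms, with rgef-1 not present. Body wall muscle markers were called lower in 4 of 6, and 5 of the 6 had values below 0, at 13.84 to 13.90 and 12.98 to 13.31. Of 7 intestinal markers ges-1 was called lower (-1.56), and the other 6 had values above 0, without a call, and the median of the 7 was 0.42. Their summed signal was 17.81 to 17.87 and 17.85 to 18.71. Germline and oocyte markers were called lower in 1 of 9, and 7 of the 9 had values below 0. Their summed signal was 18.48 to 18.80 in high MV and 18.41 to 18.48 in low MV worms. None of 3 tested sperm markers was called by limma, and 1 had an unadjusted p under 0.05, with 10.44 to 12.60 in high MV and 9.23 to 10.24 in low MV worms, and spe-9, spe-11 and spe-38 were not present. Of 4 pharynx muscle markers only tnc-2 was present, and it was higher, at 10.51 to 10.93 and 11.96 to 11.97. Under spike-in scaling 1 of 7 neuronal and 5 of 7 epidermal markers were called higher and tnc-2 was not called. Germline and oocyte markers were then called lower in 2 of 9 and sperm markers in 2 of 3. Of all genes, 7.93% were called higher and 20.4% lower under that scaling. Under 75th percentile scaling 2 of 9 germline markers were called lower and 1 of 3 sperm markers higher. The part of these shifts in the values of zip-10, zip-8 and the other bZIP genes was not tested.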

How the data were processed

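RNA of whole N2 worms, 2 low MV and 2 high MV samples, was hybridized to Agilent 4x44K C. elegans arrays with a single dye. The authors scanned the arrays and extracted them with Feature Extraction 11.5.1.1, and the deposited scanner files hold per spot a background-subtracted intensity, the median spot and local background brightness, with flags per spot. The authors also deposited a log2 table of the whole series, which equals the quantile-normalized log2 median spot brightness of all spots to within 5e-09.

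The log2 intensity of 43803 non-control spots was quantile normalized, 77 spots flagged as outliers were removed, and spots of 1 probe were averaged. Names were matched through the RefSeq table of WBcel235, for names only, because the array was annotated on ce6. Of 43541 probes, 34451 matched a gene, 1037 kept the sequence name in the files and 8053 were left out. The groups' difference was fitted with limma 3.58.1 under R 4.3.3, after a trial of the fit on simulated data. Figures were drawn in Python 3.11.15. Quantile normalization, the Gaussian mixture cutoff and the 1.5-fold threshold follow the paper's methods. The background-subtracted signal, the demand for presence on both arrays of a group, and the adjusted p are choices made here. On the deposited log2 values, 14446 genes passed the presence filter in place of 12869. limma was used in place of the paper's integrative test because it pools the spread over genes, and the integrative test was rebuilt as an alternative.

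The members and all gene lists were chosen with earlier results of these data known, so no list is independent evidence, and none was tested as a set. Named are all 10 members, zip-2, and for the other lists at most the 4 largest called genes in each direction, with genes tied to a member's role. The normexp alternative used the median spot brightness. Probe and gene sequences were not used here. The number of arrays limits the precision.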

Additional observations from a re-analysis of the deposited data

How the results depend on the processing

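Over 19 alternatives for each of the 9 tested zip- genes, or 171 values, 159 kept their direction and their side of the threshold. Much of this was fixed in advance, since changes of filter, prior, block, test or threshold reuse the same log2 fold change. There the sign cannot turn, and a gene under the fold threshold cannot be called unless that threshold is dropped. The count is therefore no measure of stability. With 1 array left out 2 members were called each time, but such a fit leaves 1 group with a single array, assumed to vary like the other group, and so says little about stability. zip-10 was called in 18 of 19 and lost only by an ordinary t-test after Benjamini-Hochberg adjustment (adjusted p = 0.0893). zip-8 was called in 16 of 19, over a range of adjusted p from 0.000323 to 0.693. The signs that turned were those of zip-1 (0.154) and zip-11 (0.088) under scaling to the 75th percentile, zip-5 (-0.017) and zip-7 (-0.13) under spike-in scaling, and zip-11 without high MV replicate 1 (0.093, lowest -0.335 with another array left out). The cause was not tested.

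Scaling to the 75th percentile called 1 member, higher, 4 member probes and 2 cold-induced death genes, against 2, 2 and 1. It called 25.6% of all genes higher and 19.2% lower. Spike-in scaling called 1 member, higher, 1029 genes higher against 2808, 4 other bZIP genes against 8, 2 intracellular pathogen response genes against 5, 1 mitochondrial stress gene against 2, 2 cold-induced death genes and 2 p38 genes against 4. Of all calls, 28% were then higher in low MV worms against 56.2%. Of all genes tested, 7.93% were called higher and 20.4% lower under spike-in scaling. Normexp called 2847 genes, 1522 higher (11.3% of all genes) and 1325 lower (9.8%), against 4996, 2808 and 2188, and 3 intracellular pathogen response genes. Without a filter on dim probes 3 and 1 genes of the intracellular pathogen and mitochondrial lists were called, beside 20.5% of all genes higher and 14.3% lower. With the scanner flag as the filter 4249 genes were higher and 1 mitochondrial stress gene was called, from a larger number of genes tested. Of all genes, 22.9% were then called higher and 15.9% lower. The probe with the largest change of each gene called 1 other bZIP gene lower and 4 mitochondrial stress genes, beside 22.9% of all genes higher and 20% lower. A 2-fold threshold called 1 member, higher, and 2207 genes (1284 or 9.98% higher, 923 or 7.17% lower). It also called 5 other bZIP genes, 1 intracellular pathogen response gene, 0 mitochondrial stress genes and 2 p38 genes. The adjusted p alone called 5 members, 2 of them lower, and 7729 genes with 3756 lower (30.9% of all genes higher, 29.2% lower). It also called 14 other bZIP genes with 1 lower, and 8, 4 and 2 genes of the intracellular pathogen, mitochondrial and cold lists. An ordinary t-test at an unadjusted p and the rebuilt integrative test each called 2 intracellular pathogen and 1 mitochondrial stress gene. Each of these tests called 17.6% of all genes higher and 14.8% lower. After adjustment the t-test called 1 member, higher, and 1573 genes (804 or 6.25% higher, 769 or 5.98% lower). It also called 4 other bZIP genes, and 2, 1, 0 and 1 genes of the intracellular pathogen, mitochondrial, cold and p38 lists. With each array left out, 3 to 4 intracellular pathogen genes, 0 to 3 mitochondrial stress genes and 2 to 4 member probes were called.

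The labels number the replicates 1 and 2 in both groups, but same-numbered arrays did not deviate together (correlation over genes -0.04). Whether same-numbered samples came from a common culture cannot be told from this value or from the labels. With the replicate block 2 members, 8 other bZIP genes and 5029 genes were called (22% of all genes higher, 17% lower). The block changed no call of a member. A block for slide or scan was not run, because each holds 1 group. Dim signal limits zip-6, zip-3 and the second probe of zip-3.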

Other observations

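The protein-coding genes next to the zip- genes on the chromosome were read from the same fit, and those named here were chosen after their values were seen. Of 19 distinct neighbours, 14 were tested, of which 4 were called higher and 1 lower in low MV worms, beside 21.8% and 17% of all genes. ceh-27, a homeobox gene beside zip-10, had a log2 fold change of 2.01 (limma, adjusted p = 0.000697), while skp-1 on its other side was at 0.04 (adjusted p = 0.770). Y75B8A.28 beside zip-12 was at -1.31 (adjusted p = 0.00145). Both neighbours of the dim zip-6 were called higher, adk-1 at 0.72 and C29F4.3 at 1.14 (adjusted p of 0.00493 and 0.00865), and of the neighbours of zip-8 only wht-6 was tested, at -0.20 (adjusted p = 0.114).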
